A study of Mus musculus with 14 samples.

Results

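N6-methyladenosine (m6A) peaks that were listed for WT mouse hepatocytes and overlapped no peak of Mettl3-cKO hepatocytes by even 1 base made up 11073 of the 17175 WT hepatocyte peaks (64.5%, 95% Wilson interval 63.8 to 65.2%, which covers counting error only). The other 6102 WT peaks were shared with the cKO list, and 11171 of the 17277 cKO peaks overlapped no WT peak. The WT-only peaks lay in 5818 of the 7450 genes with a WT peak. The members were chosen by measured values, namely presence in the WT list and absence from the cKO list, so these are described without a test. The difference in hepatocyte input between the genotypes belongs to the same contrast and is also given as a description.

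The groups were Mettl3-cKO mice, in which Cre recombinase driven by the albumin promoter deletes floxed exons 2 and 3 of Mettl3 in hepatocytes, and WT mice, which per the study's methods carried the same Cre without the floxed alleles. Hepatocytes were isolated by collagenase perfusion and low-speed centrifugation from male mice of 8 weeks, with 1 immunoprecipitated (IP) library and 1 input library per genotype. Male livers of the same age gave 2 IP and 2 input libraries per genotype, numbered 2 and 3, and female livers gave 1 RNA-seq library per genotype. The labels number the livers as replicates without tying them to named animals, so p-values measure the spread between these samples. Estimated depth was 3564803 fragments for the hepatocyte input labelled cKO and 1737350 for the one labelled WT, against 3261225 to 5875098 for the 4 male liver inputs.

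m6A is the most common internal modification of mRNA. It is written in the nucleus by a complex whose catalytic subunit is METTL3, is erased by demethylases, and is bound by reader proteins that act on splicing, translation, stability and decay of the transcript. In mammalian mRNA it is concentrated in long internal exons and around the stop codon, and GGAC is the core of its most frequent sequence context. In m6A-seq, fragmented RNA is precipitated with an antibody against m6A, and a peak is a stretch where the precipitated reads exceed the input.

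Mettl3 levels did not uniformly follow the labels of the libraries, and this bears on every value below. Mettl3 had 2.91 fragments per kilobase of transcript scaled to library size (FPKM) in the hepatocyte input labelled cKO, against 3.44 FPKM in the one labelled WT. In male liver it had 26.3 and 14.7 FPKM in the libraries labelled cKO, against 8.43 and 10.6 FPKM in those labelled WT (log2 difference 0.99, SE 0.42, adjusted p = 0.197, limma with Benjamini-Hochberg adjustment). Mettl3 had 72.3 FPKM in the female liver titled cKO, against 29.7 FPKM in the one titled WT, whose genotype tag also reads cKO and which is not used further. Mettl3 was thus not lower in any liver library labelled cKO than in the WT library of its sex, and it held no peak in either hepatocyte list. Gene-level FPKM counts the whole transcript, so it checks a deletion of 2 exons only in part. By other assays the study reported less METTL3 protein and a lower relative m6A level of mRNA in livers of its cKO mice.

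Cell type markers ran in opposite directions in the hepatocyte inputs and in the hepatocyte peak lists. All 18 hepatocyte markers were higher in the input labelled cKO, with a summed level of 31292 FPKM, against 14496 FPKM in the input labelled WT. All 16 Kupffer cell and macrophage markers were lower there (29.4 FPKM summed, against 799.9 FPKM in WT), as were all 16 sinusoidal endothelial markers (52.0 against 437 FPKM) and 13 of 14 stellate cell markers (15.1 against 147 FPKM). No Kupffer cell or endothelial marker was listed at 0 in either input. The 10 cholangiocyte markers summed to 5.60 FPKM in the input labelled cKO, with 5 at 0, against 12.2 FPKM in WT, with 1 at 0, and the 12 lymphocyte and blood markers to 7.90 against 39.3 FPKM. In the peak lists, by contrast, 101 of the 108 WT peaks of hepatocyte marker genes were WT-only (93.5%) and the cKO list held 7 peaks in these genes. For the Kupffer cell markers 3 of 7 WT peaks were WT-only, while the cKO list held 56 peaks, 52 of them without a WT counterpart. Endothelial markers had 4 WT-only of 9 WT peaks and 50 cKO peaks, and stellate markers had 2 of 5 and 30. The part of this difference in cell makeup or labelling in the results below was not tested, and there is no further hepatocyte library with which to repeat them.

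Coding windows of WT-only peaks are shown for 9 genes that recur below, each from the most enriched coding peak of the gene that holds the GGAC core well inside it. Each is 29 bases of the transcript strand, written 5′ to 3′ on GRCm38 with GGAC in capitals. Lpin1 (chr12:16573670-16573698, minus strand, exon 5 of 21), Fasn (chr11:120822117-120822145, minus strand, exon 3 of 43) and Acacb (chr5:114248174-114248202, plus strand, exon 50 of 53) are genes of lipid synthesis. Mlxipl (chr5:135123754-135123782, plus strand, exon 6 of 17) encodes the carbohydrate-responsive factor ChREBP, and Egfr (chr11:16872867-16872895, plus strand, exon 11 of 28) the epidermal growth factor receptor. Upp2 (chr2:58771518-58771546, plus strand, exon 4 of 8) encodes a uridine phosphorylase and Car3 (chr3:14869267-14869295, plus strand, exon 5 of 7) a carbonic anhydrase. Cps1 (chr1:67209637-67209665, plus strand, exon 29 of 38) starts the urea cycle, and Tat (chr8:109993876-109993904, plus strand, exon 5 of 12) starts tyrosine breakdown.
Lpin1: gtatcccagttcGGACagagaatggtccc
Fasn: ggcacacacaatGGACccccagcttcggc
Acacb: gcttcccgacaaGGACcggaaggagctgg
Mlxipl: gcttctagacctGGACtgcttcttgtccg
Egfr: ggcctgataactGGACtgacctccatgct
Upp2: acatctgtgcggGGACagacagatactgc
Car3: tcttgatgccctGGACaaaattaagacga
Cps1: ggaagtagagatGGACgctgttggcaaag
Tat: ttggccaatcctGGACagaacatcctcat

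GGAC was searched on the transcript strand only. It occurred in 57.7% of WT-only peaks (56.8 to 58.7%) and in 71.8% of shared WT peaks (70.6 to 72.9%). Longer windows hold a given motif more often, and per kilobase the peaks held 4.91 copies in WT-only peaks and 5.18 in shared peaks. Over the central 100 bases of coding peaks the shares were 44.8% of 4735 WT-only peaks (43.3 to 46.2%) and 45.1% of 3370 shared peaks (43.4 to 46.8%), so the intervals overlapped. Among all 96000 coding windows of 100 bases in the 4230 transcripts with WT-only peaks, 37.8% held GGAC (37.5 to 38.1%). The motif was therefore more frequent in WT-only coding peaks than in coding windows of the same transcripts. No such windows were taken from the transcripts of shared peaks. Of 4753 coding peaks found only in the cKO list 43.2% (41.8 to 44.6%) held GGAC in the central 100 bases. All peaks found only in the cKO list held 5.02 copies per kilobase. GGAC was thus not particular to the WT-only peaks. Among single genes, GGAC was in 4 of the 4 WT-only peaks of Mlxipl, 7 of 11 of Fasn, 9 of 15 of Lpin1, 9 of 21 of Egfr and 0 of 2 of Gys2.

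WT-only peaks were shorter and less enriched than shared ones. Their median length was 192 bases (quartiles 100 to 345), against 314.5 bases (159 to 481) for shared WT peaks. Their median fold enrichment of IP over input, as deposited, was 25.1 (13.1 to 47.4), against 39.9 (20.8 to 88.7). Their median score, which the caller computes from the log10 of its p and which is larger for smaller p, was 488 (234 to 1346), against 1036 (349 to 2702), and 769 WT-only peaks (6.94%) and 1345 shared peaks (22.0%) stood at or above the value of 3100. WT-only peaks made up 82.5% of the 1601 WT peaks of at most 50 bases and 32.3% of the 881 over 800 bases. Likewise they were 78.3% of the 2469 WT peaks with a fold of at most 10 and 21.1% of the 763 with a fold over 160. A longer peak has more chance to touch any peak of the other list, so length and membership are linked by the rule. Peaks found only in the cKO list were likewise short, with a median of 193 bases (96 to 340), against 311 bases for shared cKO peaks. Their median fold was 14.6, against 16.3 for shared cKO peaks. Shortness was thus not particular to the WT-only peaks.

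**Figure D1:**
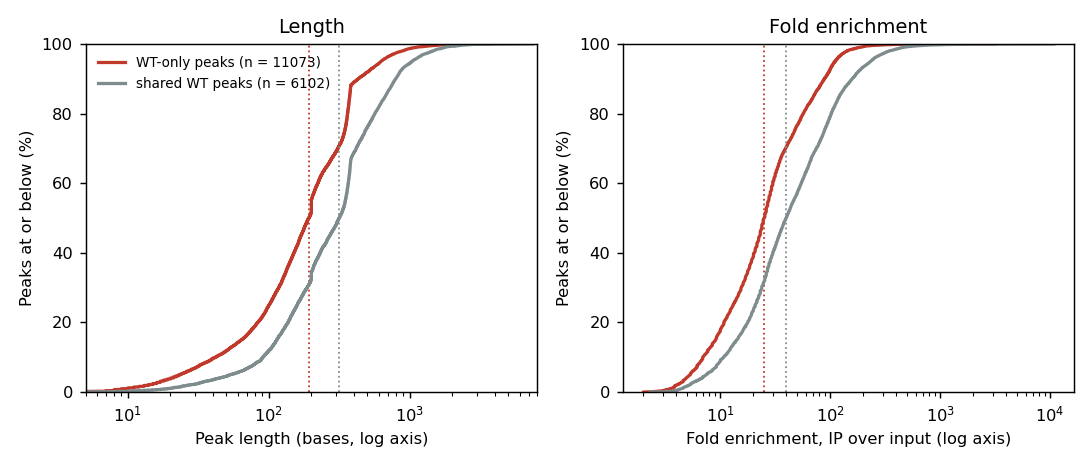
Cumulative share of hepatocyte peaks (%) by peak length in bases (left, log axis) and by fold enrichment of IP over input (right, log axis), for 11073 WT-only and 6102 shared WT peaks, with dotted lines at the medians. The WT-only curves lie to the left in both panels, with medians of 192 bases and 25.1-fold, against 314.5 bases and 39.9-fold for shared peaks.

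The peaks just inside and just outside the rule had the following folds. The members nearest to a cKO peak were in Tmed10 (fold 7.57) and Zfp955a (fold 23.14), both with 0 bases between the peaks, and in Ptbp3 (fold 28.26, 2 bases apart). Just outside it, WT peaks of Pelp1 (fold 33.16) and Fdx1l (fold 22.2) overlapped a cKO peak by 1 base and that of Ccdc59 (fold 46.27) by 2 bases. Few members were such near misses on the genome. The median genomic distance to the nearest cKO peak, introns included, was 7768 bases, and 165 WT-only peaks (1.49%) lay within 100 bases of one. Distance along the mRNA was not measured.

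Most WT-only peaks lay in coding sequence, as did shared peaks. Of 10597 WT-only peaks that could be placed by their centre, 68.1% were coding, 25.7% lay in the 3′UTR and 6.19% (5.75 to 6.67%) in the 5′UTR, against 69.0%, 28.0% and 2.94% (2.54 to 3.41%) of 5877 shared peaks. Further toward the start, 8.39% of WT-only peaks were in the first exon, against 3.95% of shared peaks, and toward the end 32.3% were in the last exon, against 40.6%. Within the 3′UTR, 21.1% of WT-only peaks fell into its first 10%, next to the stop codon, against 33.3% of shared peaks. Internal exons over 400 bases held 8.11% of the WT-only peaks in internal exons (7.46 to 8.82%), against 27.6% (26.0 to 29.1%) of the shared ones.

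Part of these differences went with peak length. Among peaks of 101 to 200 bases, internal exons over 400 bases held 1.87% of WT-only and 2.37% of shared peaks, and the last exon held 11.5% of WT-only and 7.34% of shared peaks. The 5′UTR share kept its order in this class (6.06% of WT-only and 2.94% of shared peaks), as did the first exon (6.98% against 3.18%) and the first 10% of the 3′UTR (18.5% of 281 peaks against 32.8% of 67). Peaks found only in the cKO list had, over all lengths, 6.68% in the first exon, 32.5% in the last exon and 22.1% of their 3′UTR peaks in its first 10%. They also had 5.43% in the 5′UTR, against 2.89% of shared cKO peaks. Internal exons over 400 bases held 11.1% of their peaks in internal exons, against 27.6% of the shared cKO ones. These traits were thus not particular to the WT-only peaks.

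By gene, WT-only peaks fell into 3 classes. In 2033 genes (27.3% of genes with a WT peak) the cKO list had no peak at all, and these genes held 3400 WT-only peaks. In 1515 genes the cKO list had peaks elsewhere in the gene (2427 WT-only peaks), and in 2270 genes WT-only and shared peaks stood side by side (5246 WT-only peaks). Of the 2033 genes, 1311 had a single peak, 391 had 2, 291 had 3 to 5 and 40 had 6 or more. FPKM values could be matched for 1973 of them, of which 334 were under 1 FPKM in both hepatocyte inputs and 115 were listed at 0 in the input labelled WT.

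Outside families of near-identical gene copies, which are counted but not named, 10 genes led by their number of WT-only peaks without a cKO peak, most of them enzymes of liver metabolism. Lpin1, a phosphatidate phosphatase of triglyceride synthesis, had 15 (fold 11.7 to 141), of which 11 were coding, 3 lay in the 3′UTR and 1 lay in the 5′UTR. Fasn, fatty acid synthase, had 11 (fold 8.30 to 102, median 31.6), 9 of them coding and 2 in the 3′UTR. Acacb, which makes the malonyl-CoA that holds back fatty acid oxidation, had 10 (fold 4.63 to 187), as did Upp2 (4.60 to 134), Ass1 of the urea cycle (4.71 to 74.5) and the aspartic protease gene Ddi2 (3.15 to 276). Aspg, an asparaginase, Sardh, sarcosine dehydrogenase, and Fmo5, a flavin-containing monooxygenase, had 9 each, and Aass, which starts lysine breakdown, had 8, a number that other genes shared. Enrichment thus differed widely among peaks of the same mRNA.

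Gys2, Fasn, Mlxipl and Egfr, to which the study gave most attention, were covered to different degrees. Gys2, which encodes the liver glycogen synthase, had 3 WT peaks, of which 2 were WT-only, one in exon 8 of 17 (chr6:142451534-142451640, 107 bases, fold 131) and one in the 3′UTR (chr6:142422613-142422831, fold 25.7). The shared Gys2 peak in exon 16 had a fold of 8.24 in the cKO list and 88.3 in the WT list. Mlxipl had 4 WT-only of 5 WT peaks (fold 3.76 to 107) and 1 cKO peak. Egfr had 21 of 23 (fold 2.52 to 233), spread over 19 exons, 18 of them coding and 3 in the 3′UTR. The 2 shared Egfr peaks had folds of 3.28 and 2.67 in the cKO list, against 152 and 75.4 in the WT list. Over all shared peaks the median fold was also lower in the cKO list, at 16.3 against 39.9. The fold divides by the input, where Gys2 had 38.6 FPKM in cKO and 8.69 FPKM in WT, and Egfr 183 and 38.0 FPKM. The false discovery rate had a median of 12.3% over all cKO peaks and 1.66% over all WT peaks. The part of these in the folds of single genes was not tested.

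**Figure D2:**
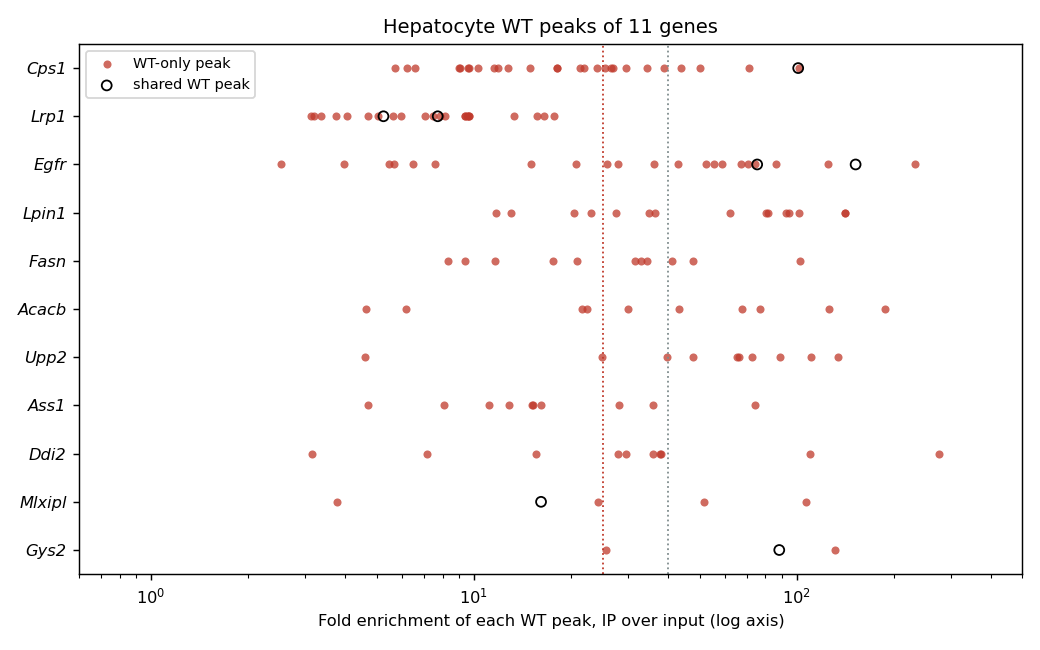
Fold enrichment of IP over input (log axis) of every WT hepatocyte peak of 11 genes, filled for WT-only and open for shared peaks, with dotted lines at the medians of all WT-only (25.1) and all shared peaks (39.9). All 15 peaks of Lpin1 and 11 of Fasn are WT-only, and folds within a gene range widely, as for Egfr from 2.52 to 233.

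The highest enrichment of all WT-only peaks was a single peak of Tnpo2, a nuclear import receptor, with a fold of 3196 (chr8:85050359-85050530, 172 bases, exon 14 of 25). It held no GGAC, and Tnpo2 had 3 cKO peaks elsewhere. Next came peaks of Eif4g1 (931), a scaffold of translation initiation, and Arhgef26 (744), a guanine nucleotide exchange factor. Onecut1 (576), a liver transcription factor, Ppp1r3g (550), a glycogen-targeting subunit of protein phosphatase, Fam214a (497), Tat (469) and Snap47 (383) followed. Onecut1, Ppp1r3g, Tat and Snap47 had no cKO peak. The fold divides by the input, whose markers are given above, and Ppp1r3g had 23.0 FPKM in the input labelled cKO and 1.21 FPKM in the one labelled WT.

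Across functional gene lists the share of WT peaks that were WT-only ran from 95.7% to 40.4%, against 64.5% of all WT peaks. The 3 lipid lists spanned 84.1% to 90.1%. In fatty acid and triglyceride synthesis 112 of 128 WT peaks were WT-only (87.5%), led by Lpin1, Fasn and Acacb, and 9 genes had no cKO peak. In cholesterol synthesis and uptake the count was 64 of 71 (90.1%), with 4 of 5 in Hmgcs1, which makes hydroxymethylglutaryl-CoA. In fatty acid oxidation and ketone synthesis it was 74 of 88 (84.1%), with 8 of 8 in Slc27a2, a fatty acid transporter and acyl-CoA synthetase, 7 of 7 in Ppara, and 6 of 8 in Cpt1a, which admits fatty acids to mitochondria.

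Nitrogen, drug and bile acid metabolism and the respiratory chain spanned 76.0% to 95.7%. In the urea cycle and amino acid list 147 of 164 WT peaks were WT-only (89.6%), with 27 of 28 in Cps1 over 27 exons (fold 5.69 to 101), 10 of 10 in Ass1 and 8 of 9 in Hal, histidine ammonia-lyase. In the cytochrome P450 and conjugation list 117 of 135 were (86.7%), led by Aox3, an aldehyde oxidase (13 of 15), Fmo5 (9 of 9) and Por, the electron donor of the P450 enzymes (7 of 7). Bile acid synthesis and transport had 76 of 100 (76.0%), with 16 of 18 in Abcc2 and 15 of 16 in Abcb11, which export conjugates and bile salts into the canaliculus, and 10 of 10 in Abcc3. Mitochondrial respiratory chain subunits had few peaks but 22 of 23 were WT-only (95.7%), among them 3 in Ndufa9 and 2 each in Atp5c1 and Sdhb.

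Sugar metabolism, secreted proteins and receptors spanned 72.0% to 84.7%. Glycogen synthesis and breakdown had 21 of 29 (72.4%), with 4 of 4 in Ppp1r3b, another glycogen-targeting subunit, and 3 of 3 in Gaa, the lysosomal glucosidase. Gluconeogenesis and glucose handling had 46 of 60 (76.7%), with 5 of 5 in both G6pc and Irs1. Apolipoproteins and plasma transport had 61 of 72 (84.7%), with 11 of 12 in Apob. Coagulation had 78 of 101 (77.2%), with 12 of 16 in F5, and complement had 72 of 100 (72.0%), with 11 of 13 in Hc. Growth factor and hormone receptors had 102 of 130 (78.5%), with 23 of 25 in the scavenger receptor Lrp1, 21 of 23 in Egfr and 9 of 11 in Lifr.

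Regulators stood on both sides. Liver transcription factors had 64 of 81 (79.0%), with 7 of 8 in Hnf4a and 6 of 6 in Nr1i2, the pregnane X receptor. Circadian clock genes had 27 of 38 (71.1%), with 6 of 10 in Per2. Cytosolic ribosomal proteins had 8 of 14 (57.1%), interferon response genes 14 of 30 (46.7%), p53 targets and cell cycle genes 3 of 7 (42.9%), and m6A writers, erasers and readers 21 of 52 (40.4%). In the m6A list Zc3h13, a member of the writer complex, had 4 WT-only of 12 WT peaks and 10 cKO peaks.

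**Figure D3:**
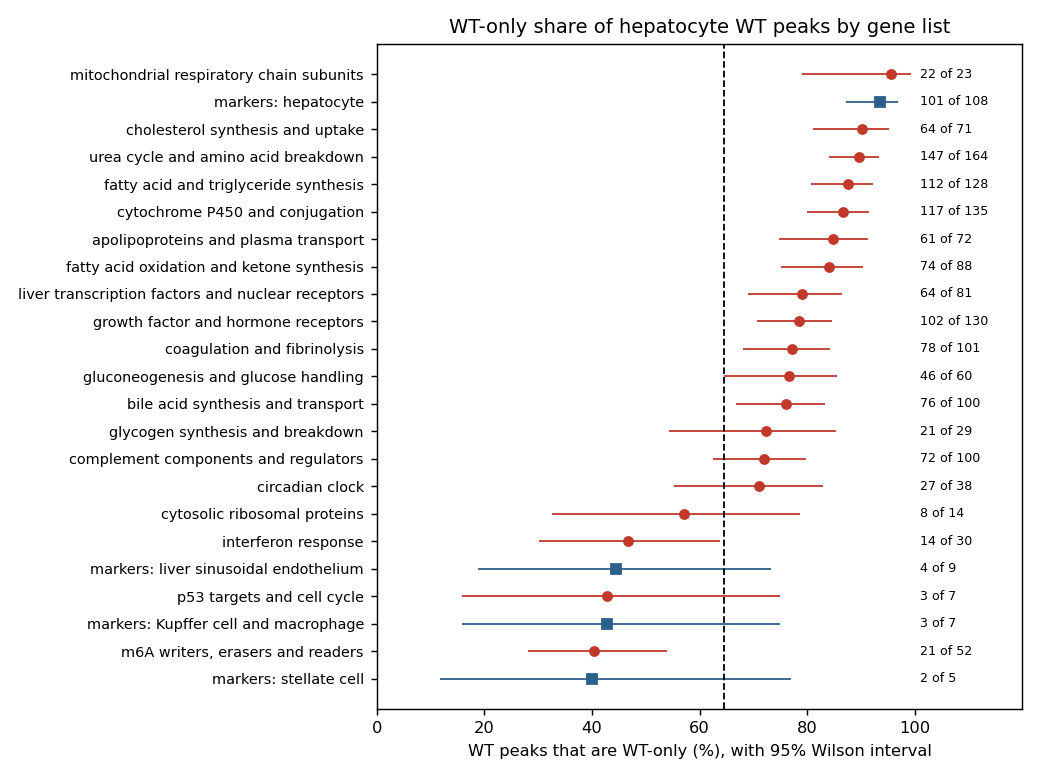
Share of WT hepatocyte peaks that are WT-only (%) for each gene list (circles) and cell type marker list (squares), with 95% Wilson intervals and the counts at the right, and a dashed line at 64.5% for all WT peaks. Metabolic lists and hepatocyte markers (101 of 108) lie right of the line, and m6A machinery (21 of 52) lies left of it.

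Genes with WT-only peaks had more input RNA in the hepatocyte library labelled cKO. The 1570 genes above the minimum level with WT-only peaks and no cKO peak had a median of 7.98 FPKM in the input labelled cKO, against 4.14 FPKM in the one labelled WT, and a median log2 difference of 0.88 (quartiles 0.32 to 1.43), against 0.41 over all 9550 genes. Of these 1570 genes 682 (43.4%) were at least 2-fold higher and 47 (2.99%) at least 2-fold lower in cKO, where the shares over all genes were 23.6% and 13.2%. Genes with shared peaks only had a median of 0.20, and genes with cKO peaks only had −0.30. Seen the other way, 978 of 1114 WT peaks (87.8%) were WT-only where the gene was 4-fold or more higher in the cKO input, against 62 of 162 (38.3%) where it was 4-fold or more lower. With 1 library per genotype these differences have no replicate check, and the hepatocyte markers given above moved in the same direction. The peaks were called as IP over these same inputs, so the input level of a gene and its membership are linked by the calling. In bulk samples fewer cells of a type and less RNA per cell cannot be told apart.

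Male liver inputs, which the choice of peaks did not use, allowed a test of expression in the same genes. Of 5248 tested genes with WT-only peaks, 136 (2.59%) were lower and 89 (1.70%) higher in livers labelled cKO than in those labelled WT at an adjusted p under 0.05 (limma, Benjamini-Hochberg over all genes tested), where 1.5% and 3.68% of all gene entries were called. For the 1681 genes with no cKO peak the counts were 65 (3.87%) lower and 34 (2.02%) higher, and for the 1432 genes with shared peaks only they were 5 (0.349%) lower and 59 (4.12%) higher. The median log2 difference of the genes with no cKO peak was 0.21, that of genes with shared peaks only was 0.51, and that of all genes was 0.42. Scaling the libraries to a common median ratio brought the median of all genes to −0.0019 and moved the calls among genes with WT-only peaks to 234 lower and 30 higher. These were 4.46% and 0.572% of the genes with WT-only peaks, where 2.59% and 1.55% of all gene entries were called. Without any 1 of the 4 livers (each cKO and each WT library in turn), 0 or 1 of the genes with WT-only peaks were called lower and 0 higher by limma, while an unadjusted p under 0.05 was reached by 229 to 555 genes on the lower side and 284 to 658 on the higher side.

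Among genes with WT-only peaks and no cKO peak, and outside families of near-identical copies, the 5 largest falls in liver were in enzymes and a carrier of metabolism. Car3 had 15.5 and 20.7 FPKM in livers labelled cKO, against 608 and 937 FPKM in those labelled WT (log2 difference −5.32, SE 0.36, adjusted p = 0.00171, limma). Cyp7b1, an oxysterol hydroxylase of bile acid synthesis, was listed at 0 and had 0.598 FPKM in cKO, against 52.1 and 52.4 FPKM in WT (adjusted p = 0.00218, limma). Both genes fell in each cKO liver, far outside the spread of either group. Upp2 had 9.29 and 14.1 FPKM in cKO, against 250.2 and 154 FPKM in WT (−3.99, SE 0.40, adjusted p = 0.00711, limma). Cyp8b1, which directs bile acid synthesis to cholic acid, had 4.53 and 3.22 FPKM in cKO, against 48.7 and 113 FPKM in WT (−3.96, SE 0.48, adjusted p = 0.0128, limma). Slc25a47, a mitochondrial carrier of liver, had 2.14 and 10.7 FPKM in cKO, against 106 and 71.2 FPKM in WT (−3.86, SE 0.63, adjusted p = 0.0241, limma). None of these ranges overlapped between the genotypes. This follows largely from the choice, since all 65 genes of this class called lower were separated in the same livers.

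Egfr and Gys2 also fell in male liver, while Fasn and Mlxipl did not pass and their call depended on the fit. Egfr had 19.6 and 26.0 FPKM in livers labelled cKO, against 204 and 216 FPKM in those labelled WT (−3.16, SE 0.33, adjusted p = 0.00824, limma). Gys2 had 17.1 and 13.6 FPKM in cKO, against 73.1 and 54.8 FPKM in WT (−1.99, SE 0.36, adjusted p = 0.0319, limma). Both were separated between the genotypes in every library, which follows largely from their being called in these livers. After median-ratio scaling Mlxipl passed (adjusted p = 0.0441, limma) and Fasn did not (adjusted p = 0.0692). Before scaling, Mlxipl had 23.0 and 8.54 FPKM in cKO, against 102 and 55.4 FPKM in WT (−2.34, SE 0.54, adjusted p = 0.055, limma). Fasn had 50.9 and 21.1 FPKM in cKO, against 202 and 84.5 FPKM in WT (−1.96, SE 0.56, adjusted p = 0.0919, limma). Their ranges did not overlap either, but livers of one label lay further apart than for Egfr and Gys2.

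Of these 10 genes with many WT-only peaks, from Lpin1 to Aass above, Upp2 and Aass (−1.95, SE 0.37, adjusted p = 0.0352, limma) were called lower in liver and the other 8 were not called. Lpin1 had 8.20 and 12.1 FPKM in cKO, against 33.1 and 8.62 FPKM in WT (−0.72, SE 0.62, adjusted p = 0.504, limma). The 2 groups overlapped for Lpin1. Acacb (−1.04, adjusted p = 0.212) and Ass1 (−0.51, adjusted p = 0.375) were not called by limma, and G6pc missed the threshold (−3.14, SE 0.74, adjusted p = 0.0569) but passed after median-ratio scaling (adjusted p = 0.0442). Among the other called genes of the lists were Slc27a2 (−2.16, adjusted p = 0.028), Lifr (−2.16, adjusted p = 0.0249), Hrg, a plasma histidine-rich glycoprotein (−1.94, adjusted p = 0.033), and Hc, the complement component C5 (−1.42, adjusted p = 0.0483), all lower in cKO by limma.

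The 5 genes of this class with the largest rise in livers labelled cKO had a single WT-only peak each. Cstb, a cysteine protease inhibitor, had 143 and 243 FPKM in cKO, against 27.8 and 21.2 FPKM in WT (2.89, SE 0.39, adjusted p = 0.016, limma). Actg1, cytoplasmic gamma-actin, had 226 and 182 FPKM in cKO, against 18.3 and 39.0 FPKM in WT (2.88, SE 0.43, adjusted p = 0.0198, limma). The single WT-only peaks of Cstb and Actg1 had folds of 4.63 and 4.78. Pgp (2.88, SE 0.56) and Dhrs13 (2.64, SE 0.52), each with 1 WT library listed at 0, and Nt5c3b (2.62, SE 0.41) followed. Of these Nt5c3b had 13.8 and 9.80 FPKM in cKO, against 0.984 and 1.12 FPKM in WT.

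By list, calls in male liver were most frequent in P450, bile acid and complement genes on the lower side and in ribosomal protein genes on the higher side. These counts take in all tested genes of a list, with or without WT-only peaks. Of all gene entries 1.5% were called lower and 3.68% higher, and after median-ratio scaling 2.59% and 1.55%. Limma called 10 of 31 genes of the P450 and conjugation list lower in cKO (median log2 difference −1.33), 7 of 20 of bile acid synthesis and transport lower and 1 higher (median −0.998), 6 of 18 complement genes lower (−1.12) and 5 of 23 coagulation genes lower (−0.73). It called 3 of 31 urea cycle and amino acid genes, 2 of 24 lipid synthesis genes and 2 of 21 receptors lower, and 1 each of 23 cholesterol genes and 20 gluconeogenesis genes. The median of all genes was 0.42 on the same scale. Glycogen genes had 1 of 21 lower and 3 higher (1 and 0 after median-ratio scaling), and fatty acid oxidation genes had 1 of 25 lower and 2 higher (4 and 0 after scaling). After scaling 3 genes of each list were higher at an unadjusted p under 0.05 (limma).

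Ribosomal protein genes went the other way, with 11 of 21 called higher by limma (median 1.81, or 1.31 after median-ratio scaling, with 7 called). Of p53 targets and cell cycle genes 4 of 18 were higher (median 1.73, with 2 called after scaling), and 1 of 20 interferon response genes was. A single higher call in a list of 20 to 26 genes is close to the 3.68% over all gene entries. Of 26 apolipoprotein and plasma transport genes 1 was called higher, whereas after median-ratio scaling 4 were called lower and none higher (2 higher at an unadjusted p under 0.05, limma). No gene was called by limma in the lists of transcription factors (28 tested, 2 lower and 0 higher at an unadjusted p under 0.05), clock genes (11 tested, 0 and 0), m6A factors (19 tested, 0 and 6) and respiratory chain subunits (22 tested, 0 and 4). Their median differences were −0.09, −0.00027, 0.73 and 0.61 in that order. In the hepatocyte inputs the list medians were between 0.64 (complement) and 2.18 (lipid synthesis) for the metabolic, plasma protein and transcription factor lists, against −1.23 for interferon genes.

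Cell type markers moved beside them. Summed hepatocyte markers had 20551 and 25107 FPKM in livers labelled cKO, against 34605 and 44479 FPKM in WT, Kupffer cell markers 510 and 802 against 289 and 236 FPKM, stellate cell markers 396 and 419 against 157 and 199 FPKM, and cholangiocyte markers 259 and 177 against 66.2 and 29.5 FPKM. Endothelial markers had 268 and 228 FPKM in cKO, against 194 and 147 FPKM in WT, and lymphocyte and blood markers 81.2 and 221 against 45.3 and 152 FPKM. Mitochondrial transcripts took 28.0% and 21.9% of FPKM in cKO, against 17.6% and 15.5% in WT. The part of either in the gene lists was not tested.

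**Figure D4:**
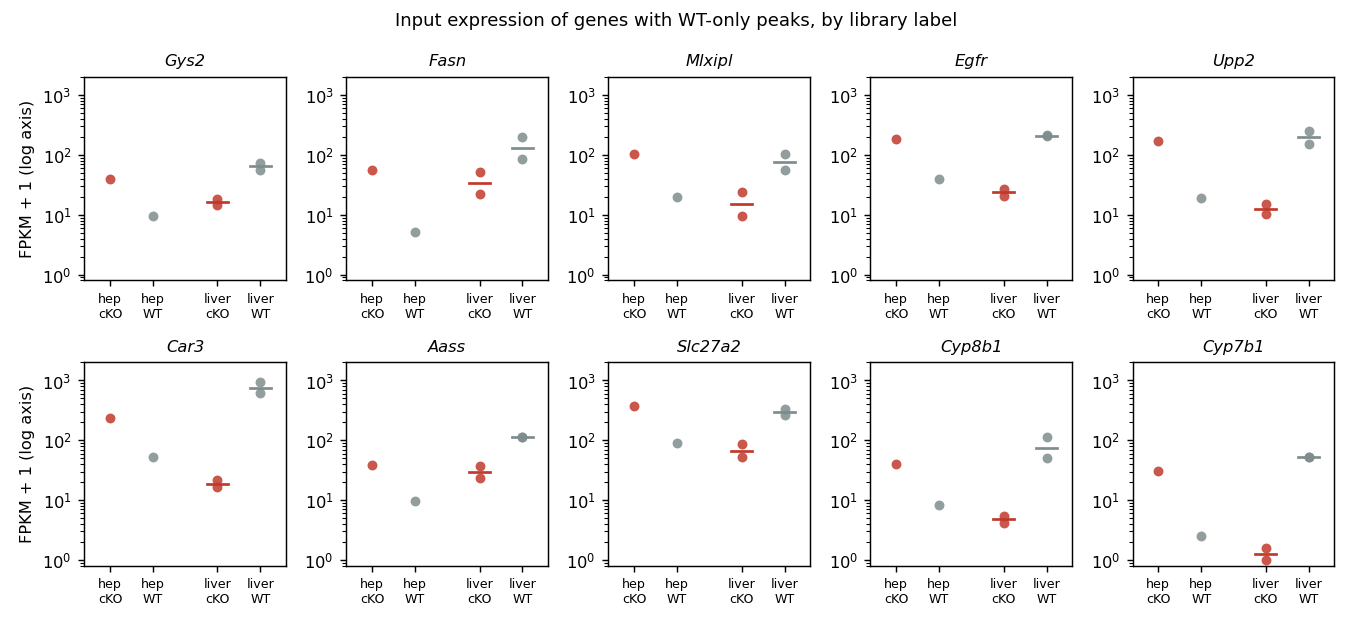
Input FPKM + 1 (log axis) of 10 genes with WT-only peaks in the hepatocyte libraries labelled cKO and WT (1 each) and the male liver libraries labelled cKO and WT (2 each, with a line at the mean). In all 10 genes the cKO library was the higher of the hepatocyte pair, and both cKO livers lay below both WT livers. Apart from Fasn and Mlxipl, the genes were called lower in these same livers.

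The input difference in hepatocytes and that in male liver pointed opposite ways in these genes. All 136 genes with WT-only peaks that fell in male liver were higher in the hepatocyte input labelled cKO. For the 65 with no cKO peak the hepatocyte median was 2.02 and the liver median −2.83, and 60 of the 65 were at least 2-fold higher in the hepatocyte input. Over all 9550 genes the hepatocyte median was 0.41 and 23.6% were at least 2-fold higher. Among the 1570 genes with WT-only peaks and no cKO peak 43.4% were. Genes called lower in liver that held no WT-only peak were not compared. Gys2, for example, had 38.6 FPKM in the hepatocyte input labelled cKO, against 8.69 FPKM in the one labelled WT, and Egfr had 183 against 38.0 FPKM. Fasn had 54.6 against 4.20 FPKM and Mlxipl 102 against 18.9 FPKM. Among the 84 genes called higher in liver that had a hepatocyte value, 47 were higher and 37 lower in the hepatocyte input labelled cKO, with a median of 0.13.

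**Figure D5:**
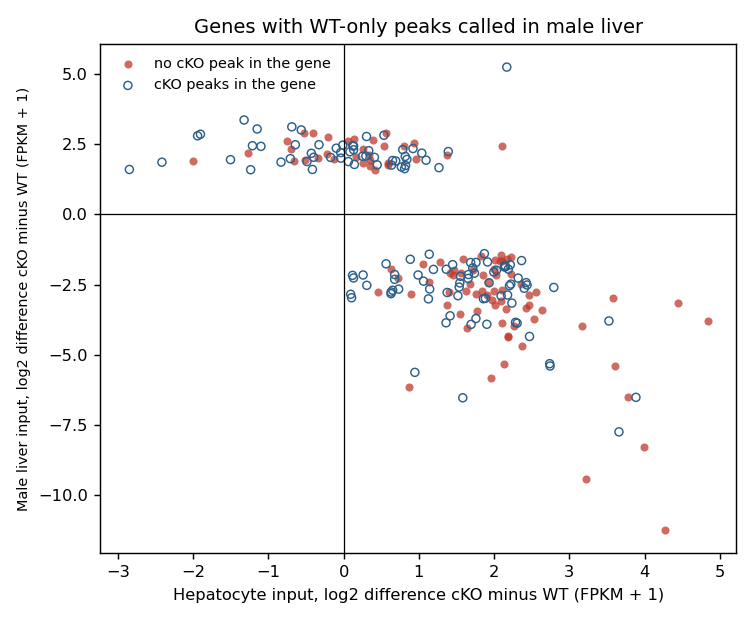
Log2 difference of FPKM + 1, cKO minus WT, in male liver input (y axis) against hepatocyte input (x axis) for genes with WT-only peaks called in male liver, filled where the gene has no cKO peak and open where it has. All 136 genes below 0 on the y axis lie right of 0 on the x axis, and the 84 above 0 lie on both sides.

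Male liver IP libraries gave a further look at the same positions, at far lower peak numbers. The livers labelled cKO had 1624 and 1127 peaks and those labelled WT had 2424 and 1052. Of the 11073 WT-only hepatocyte peaks, 233 (2.10%) and 191 (1.72%) overlapped a peak of a cKO liver, against 223 (2.01%) and 102 (0.921%) for WT livers. The difference of the means was 0.45 percentage points (two-sided exact permutation test, p = 0.667, with 0.333 the smallest p that 2 livers against 2 allow), and without WT replicate 3 it was −0.099. As a share of the liver peaks, WT-only hepatocyte peaks accounted for 14.2% and 16.8% of the cKO lists, against 9.20% and 9.60% of the WT lists (exact permutation p = 0.333). With liver peaks of a score of at least 40 the overlaps were 1.59% and 1.38% in cKO livers, against 0.804% and 0.659% in WT livers (exact permutation p = 0.333). The design could not pass the threshold in either direction, and with all 4 livers the mean overlap was not lower in cKO. Shared hepatocyte peaks overlapped 3.85% and 3.56% in cKO livers, against 4.69% and 2.56% in WT livers.

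Few WT-only peaks recurred across livers. A total of 545 (4.92%) overlapped a peak in any liver library, 133 in at least 2 and 21 in all 4. In 29 the peak was in both cKO livers and no WT liver, and in 8 it was in both WT livers and no cKO liver. Many of the 29 lay in families of near-identical gene copies or came several to 1 gene, so they are not 29 separate positions. The 5 of these 8 with the highest hepatocyte fold were in Zxdb (61.7), Slc43a1 (31.6), Rnf146 (29.3), Actr1b (27.0) and Arhgap32 (24.7). The Zxdb peak had folds of 574 and 260 in the WT livers, whose inputs held only 0.216 and 0.172 FPKM of Zxdb. Liver cKO 2 listed 1 Zxdb peak elsewhere. The peaks of Slc43a1, Rnf146, Actr1b and Arhgap32 had folds of 3.05 to 3.75 in WT liver 2 and 2.5 to 3393 in WT liver 3. A 3′UTR peak of Ppp1r3b, chosen after its values were seen, had a hepatocyte fold of 119 and folds of 236 and 323 in the cKO livers, with no peak in WT livers. Gys2, Lpin1, Upp2 and Mlxipl had no peak in any liver, Egfr had 3 in 1 cKO liver, Car3 had 5 and 1 in the cKO livers and Aass had 1 and 2 in the cKO livers and 2 in each WT liver.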

How the data were processed

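Peak lists were called by the authors with MACS (version not given in the sources used here) and limited to exons. Reads were aligned to mm10 with HISAT2 2.0.4 after cutadapt 1.9.3. Each deposited list gives a score (made from the log10 of p, larger for smaller p), a fold enrichment (ratio of IP over input) and a false discovery rate in percent. The deposited expression tables hold FPKM made by the authors with Cufflinks and Cuffdiff, whose versions are not given in the sources used here. The deposited signal columns, estimated fragments per gene scaled by the authors, were used for depth alone.

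A WT-only peak overlapped no cKO peak by at least 1 base, found by a direct comparison of intervals. This comparison was checked against bedtools 2.31.1 on random intervals. Peaks were placed by their centre on GENCODE M21 transcripts (GRCm38). Input log2(FPKM + 1) of male liver was fitted with limma 3.58.1 (R 4.3.3) without a replicate block, keeping genes that averaged 1 FPKM or more, with Benjamini-Hochberg adjustment; fold changes on this scale understate those of low genes. The same minimum held for the hepatocyte inputs. In the signal columns of the 8 libraries 90.6 to 94.4% of values were whole multiples of 1 step per library, within 0.02 of a step, and the step gave the depth. limma was tested on simulated data. Gene symbols matched FPKM for 97.7% of genes with WT-only peaks. The members and lists were chosen with earlier results of these data known. Named genes were those of the study, those with the most WT-only peaks and no cKO peak (10), the highest fold (8), the 3 leading genes of each list, 5 with peaks in both WT livers only, 5 called lower and 5 higher in liver, and 3 on each side of the rule's border; near-identical gene families were counted, not named. Some genes that this rule selects are not reported here. Alternatives are given in the closing section.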

Additional observations from a re-analysis of the deposited data

Results flagged for a closer look

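In 15 of the genes reported above and called in male liver, the log2 difference of cKO minus WT in the hepatocyte inputs was opposite in sign to every comparison of male livers. It was 2.03 for Gys2, 2.24 for Egfr, 2.14 for Car3, 3.61 for Cyp7b1, 3.17 for Upp2, 2.27 for Cyp8b1, 2.10 for Slc25a47, 2.00 for Aass, 0.99 for Lifr, 2.02 for Slc27a2, 0.63 for Hrg and 1.14 for Hc, all lower in both livers labelled cKO. It was −0.52 for Actg1, −0.41 for Cstb and −0.76 for Nt5c3b, all higher in both livers labelled cKO. The difference between the tissues was not tested, since each hepatocyte input is 1 library.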

How the results depend on the processing

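Counting WT peaks of a fold of at least 20 alone left 6779 WT-only peaks. Requiring a cKO peak to cover 50% of the WT peak gave a median length of 200 bases, and a score of at least 100 in both lists gave 199 bases, a median fold of 27.1 and a median score of 582. GGAC was in 41.9% of the central 100 bases. For genes with WT-only peaks, limma called 7 lower and 0 higher in cKO without the filter (437 and 691 at an unadjusted p under 0.05), 234 and 30 with median-ratio scaling, and 239 and 217 with the replicate block. For those with no cKO peak the counts were 4 and 0 (213 and 231 unadjusted), 110 and 13, and 118 and 76. Over all genes limma called 9 lower and 2 higher without the filter. With median-ratio scaling 2.59% of all genes were lower and 1.55% higher, against 4.46% and 0.572% of genes with WT-only peaks. With the replicate block the shares were 2.61% and 7.20% of all genes, against 4.55% and 4.13%. Higher calls were thus less frequent in genes with WT-only peaks than over all genes in both of these fits. The replicate numbers share only a number (correlation of deviations 0.13), so the block was not the reported fit. With each liver left out in turn, limma called 0 to 1 lower and 0 higher in both classes (unadjusted 229 to 555 and 284 to 658 for all, 112 to 251 and 89 to 264 for those with no cKO peak). Of the 225 called genes, 225 kept their direction in every alternative. The alternatives reuse the livers in which these genes were called, so the kept direction is no check. Their call held for 225 with the replicate block, 166 with median-ratio scaling and 7 without the filter. The liver overlap difference, left out by library as an alternative chosen after seeing the data, ranged from −0.099 to 0.993 percentage points and was −0.099 without WT replicate 3. Lpin1 ranged from −1.64 to 0.19 with a liver left out and was 0.19 without WT replicate 2. Over single named genes and alternatives, 96 values kept direction and call, 90 kept direction and lost the call, 5 gained it and 1 turned. With the replicate block limma also called Fasn (adjusted p = 0.0106), Mlxipl (0.00768) and G6pc (0.0227). The 1 hepatocyte library per genotype, the 2 livers per genotype and the few liver peaks limit what could be detected.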
